A study of Arabidopsis thaliana with 6 samples.

Results

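The set described here holds 200 probe sets of 200 nuclear genes that gave the brightest steady signals in flower buds of droughted Arabidopsis thaliana. They were taken from 13421 probe sets that the probe-to-gene table pairs with a single nuclear gene, out of 22810 on the array. A probe set entered when the means of its 2 samples on days 3, 4 and 5 lay less than 0.4 apart on the log2 scale between any pair of days, and among the 9776 that met this limit (72.8%) the 200 with the highest mean over all 6 samples were kept. A log2 difference of 0.4 is a 1.32-fold difference. The members were thus chosen by their level and by their day means, the same values given below, and both are given as a description that supports nothing further.

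The 6 samples were unopened buds of dreb1a, the mutant line CS872453 in the Col-0 background, each hybridised as biotin-labelled total RNA to an ATH1 array. Water was withheld from plants after 24 days of growth, when the main stem was about 1 cm high, and the soil reached about 35% of its water-holding capacity after roughly 80 h, which was called day 3. There were 2 samples on each of days 3, 4 and 5, from plants aged 28, 29 and 30 days. Every sample carried the mutation and had been droughted, and no buds of wild-type or of watered plants enter the values below. Plant age rose with the day of drought and the effects of age and drought cannot be told apart. The labels do not say that the samples of a day came from separate plants, so the spread between them may be technical. No probe set was named for DREB1A, so the genotype rests on the labels.

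An unopened bud holds green sepals with working chloroplasts, dividing young organs and anthers that are building pollen. Rubisco activase and the light-harvesting proteins serve photosynthesis, cytosolic glycolysis and the mitochondrial respiratory chain supply energy, and thionins and defensins are small cysteine-rich peptides linked with defence in flowers. Dehydrins, which are hydrophilic, and other late embryogenesis abundant proteins are best known from drying tissues.

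Of the 200 members, 40 carried a gene name in the RefSeq table, 35 as the symbol and 5 as a synonym of the locus. The other 160 were listed by locus tag alone. No role is given for them here, save that AT5G07230 stands on a marker list below. The named 40 were sorted by the role their name denotes. Photosynthesis and the plastid held 14 members, primary metabolism and the flavonoid pathway 8, redox and stress 5, and cytoskeleton and cell wall 4. There were 3 in the mitochondrion and organelle envelopes, 3 in RNA and translation, 2 defence peptides and 1 anther gene. Signals of different probe sets depend on the probes as well as on the transcript, so the order of the members is an order of signal and not of transcript number.

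The 200 means ran from 11.15 to 13.82 log2 units with a median of 11.87, against a median of 7.04 over the 13421 eligible probe sets. The dimmest member lay above 96.3% of the 22746 probe sets that were not array controls. At or above its level stood 310 eligible probe sets, of which the 200 members made up 64.5% and 110 were left out because their day means differed too much. Also as bright, and outside the selection, were 513 probe sets with several genes or none in the table, 362 of them within the day limit, and 22 probe sets of plastid genome genes, 17 of them within it. The set is thus what the named part of the array showed.

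**Figure D1:**
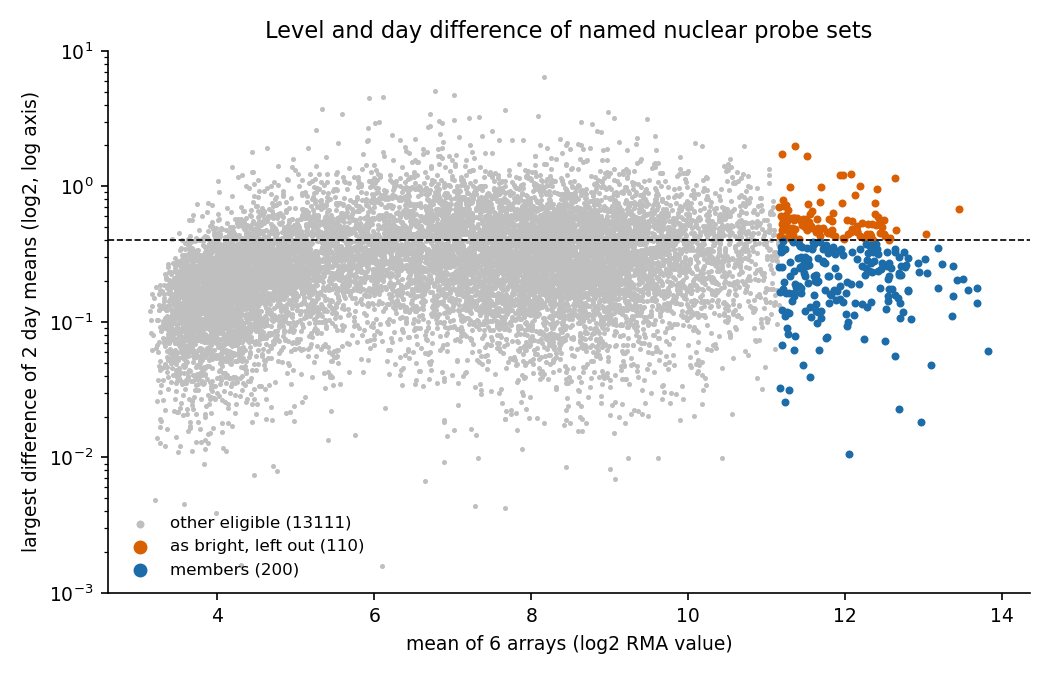
Each point is an eligible probe set, with its mean over 6 arrays in log2 units on the x axis and the largest difference between 2 of its day means on a log y axis. The 200 members lie below the dashed limit of 0.4 and to the right of 11.15, and the 110 equally bright probe sets above the limit were left out.

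The brightest member was AT2G20870, which read 13.75 and 13.81 on day 3, 13.88 and 13.77 on day 4, and 13.86 and 13.83 on day 5. Its day 4 samples overlapped those of days 3 and 5, and both day 5 samples lay above those of day 3. Its day means spanned 0.06. AT1G78040 came next, at 13.79 and 13.74 on day 3, 13.59 and 13.67 on day 4, and 13.72 and 13.58 on day 5, with its day 3 samples highest. AT5G20290 read 13.71 and 13.77, then 13.75 and 13.69, then 13.56 and 13.57, so that both day 5 samples lay below the other 4. The same arrangement was seen in AT3G60245, AT1G52300, AT3G49910 and AT3G62870, whose means were 13.57, 13.50, 13.43 and 13.37. Members 8 to 10 by signal were AT5G15200 at 13.37, AT1G01100 at 13.37 and AT1G67430 at 13.23. In each of them too both day 5 samples lay below the other 4. None of the first 10 was named in the table.

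Photosynthesis and plastid genes formed the largest named group. RCA, the rubisco activase that frees blocked rubisco for catalysis, was the brightest of the 14, at 13.07 and 13.00 on day 3, 12.81 and 12.79 on day 4, and 13.02 and 12.93 on day 5. Both day 4 samples were the lowest. PRK, the phosphoribulokinase of the Calvin cycle, read 11.72 and 11.67, then 11.45 and 11.24, then 11.67 and 11.70, again with both day 4 samples lowest.

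SBPASE, the sedoheptulose-bisphosphatase of the same cycle, went a different way, at 11.56 and 11.63 on day 3, 11.61 and 11.51 on day 4, and 11.35 and 11.23 on day 5. Its day 5 samples lay below the other 4. The Calvin cycle enzymes among the members thus had their lowest values on different days.

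Among light-harvesting and photosystem genes, LHCB4.1, an antenna protein of photosystem II, read 12.38 and 12.33 on day 3, 12.48 and 12.58 on day 4, and 12.39 and 12.50 on day 5. LHCB4.3, of the same antenna family, read 11.77 and 11.75, then 11.74 and 11.82, then 11.68 and 11.73. LHCB4.1 was lowest on day 3 and LHCB4.3 on day 5, with day means that spanned 0.18 and 0.08. PSAE-1, a stromal subunit of photosystem I, read 12.49 and 12.53, then 12.41 and 12.51, then 12.11 and 12.18.

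PSBY, a small photosystem II protein, read 11.99 and 12.07 on day 3, 12.03 and 12.00 on day 4, and 11.72 and 11.67 on day 5. In PSAE-1 and PSBY both day 5 samples lay below the other 4, by more than any replicate difference of either gene. PSBW, a photosystem II reaction centre protein, ran the other way, from 11.74 and 11.72 through 11.83 and 11.87 to 11.87 and 11.91. PSB27, which takes part in photosystem II assembly, also read lowest on day 3, at 11.33 and 11.44, and then 11.67 and 11.54 on day 4 and 11.67 and 11.79 on day 5.

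Of the remaining plastid members, CURT1A, which curves thylakoid membranes, spanned 0.18 between day means and ATPC1, the gamma subunit of the chloroplast ATP synthase, also 0.18. AT1G74470, a geranylgeranyl reductase of chlorophyll and tocopherol synthesis, spanned 0.11. The thioredoxin ATHM2 spanned 0.12 and AT5G58330, a NADP-dependent malate dehydrogenase, 0.06. Over the 14 genes the day 5 mean was below the day 3 mean in 10 and above it in 4, with a median difference of -0.06 log2, beside -0.01 over all 22746 probe sets. That split turned to 4 below and 10 above after cyclic loess normalization, with a median of 0.04, so no direction is given for the group.

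In primary metabolism, GAPC2, a cytosolic glyceraldehyde-3-phosphate dehydrogenase often used as a reference gene, read 12.85 and 13.05 on day 3, 13.05 and 12.88 on day 4, and 13.00 and 12.94 on day 5. The days overlapped fully, and its day means spanned 0.02, far less than its largest replicate difference of 0.20. TPI, the triosephosphate isomerase that precedes it in glycolysis, read 12.70 and 12.88, then 12.83 and 12.60, then 12.58 and 12.56, with both day 5 samples lowest. The cytosolic isocitrate dehydrogenase cICDH, a source of NADPH, read 12.43 and 12.42, then 12.37 and 12.28, then 12.13 and 12.08, and its 3 days did not overlap.

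SAMDC, the S-adenosylmethionine decarboxylase of polyamine synthesis, read 12.60 and 12.53 on day 3, 12.83 and 12.75 on day 4, and 12.73 and 12.83 on day 5, lowest on day 3. ACLA-1 and ACLB-1 encode both subunits of ATP-citrate lyase, which makes cytosolic acetyl-CoA. ACLA-1 read 12.07 and 12.20, then 12.23 and 11.88, then 12.24 and 12.15, and its day 4 samples stood 0.36 apart. ACLB-1 read 11.28 and 11.30, then 11.15 and 11.29, then 11.16 and 11.19. Its day 4 samples overlapped those of days 3 and 5, and both day 5 samples lay below those of day 3.

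The remaining metabolic members were ALDH11A3 and CHIL. ALDH11A3, a non-phosphorylating glyceraldehyde-3-phosphate dehydrogenase, had a day span of 0.26. CHIL, a chalcone isomerase-like protein of the flavonoid pathway and not of primary metabolism, was placed in this group and spanned 0.34. In the group of 8, 4 day 5 means were below and 4 above those of day 3.

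Stress and redox members included proteins known from drying tissue. HIRD11 (AT1G54410), a dehydrin, read 12.73 and 12.67 on day 3, 12.79 and 12.83 on day 4, and 12.89 and 12.85 on day 5. Its days did not overlap, in rising order, with a day span of 0.17. LEA26 (AT2G44060), a late embryogenesis abundant protein, read 11.59 and 11.55, then 11.72 and 11.75, then 11.55 and 11.52, with day 4 highest.

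PRXR1, a peroxidase, read 12.19 and 12.16 on day 3, 12.30 and 12.46 on day 4, and 12.51 and 12.50 on day 5, again without overlap. The order of PRXR1 and HIRD11 over the days held on the scale of the deposited values, but with the arrays scaled to the spiked poly-A controls all 5 stress and redox members were lower on day 5 than on day 3. GRXC2, a glutaredoxin, spanned 0.09 between day means. GILT, a thiol reductase, had day 3 samples at 11.66 and 11.27, a gap of 0.39 that was larger than its day span of 0.18.

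Of the defence peptides, the thionin THI2.1 read 12.96 and 12.79 on day 3, 12.87 and 12.75 on day 4, and 12.74 and 12.68 on day 5. The defensin LCR66 read 11.51 and 11.53, then 11.46 and 11.39, then 11.46 and 11.78, and its day 5 samples stood 0.32 apart. The anther gene ATA27, a beta-glucosidase (BGLU20), read 12.31 and 12.03, then 12.32 and 12.35, then 12.48 and 12.33. Its day 3 samples differed by 0.28, more than its day span of 0.24. In RNA from whole buds, fewer cells of a type and less RNA per cell cannot be told apart.

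The mitochondrial cytochrome c gene CYTC-1 read 12.35 and 12.50 on day 3, 12.61 and 12.44 on day 4, and 12.34 and 12.23 on day 5. MPPBETA, a subunit of the peptidase that processes imported mitochondrial proteins, read 11.51 and 11.62, then 11.55 and 11.58, then 11.32 and 11.25, with both day 5 samples lowest. OEP16-3, of a family of organelle envelope proteins, spanned 0.13. PGY1, which encodes a protein of the large ribosomal subunit, read 12.42 and 12.55, then 12.54 and 12.54, then 12.24 and 12.22.

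Y14, a component of the exon junction complex on spliced mRNA, had the widest day span of all members, at 11.26 and 11.45, then 11.38 and 11.24, then 11.01 and 10.91. EIF4A-2, an RNA helicase of translation initiation, spanned 0.14. Both day 5 samples were lowest in PGY1 and Y14. In the wall and cytoskeleton group, GH9B13, a glycosyl hydrolase, spanned 0.08 and SPR1, which guides cortical microtubules, 0.12. CSLA01, a cellulose synthase-like enzyme, was highest on day 4, at 11.57 and 11.51, and spanned 0.39. WLIM2b, an actin-binding LIM protein, was highest on day 5, at 11.42 and 11.39, against 11.14 and 11.04 on day 3 and 10.94 and 11.16 on day 4.

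**Figure D2:**
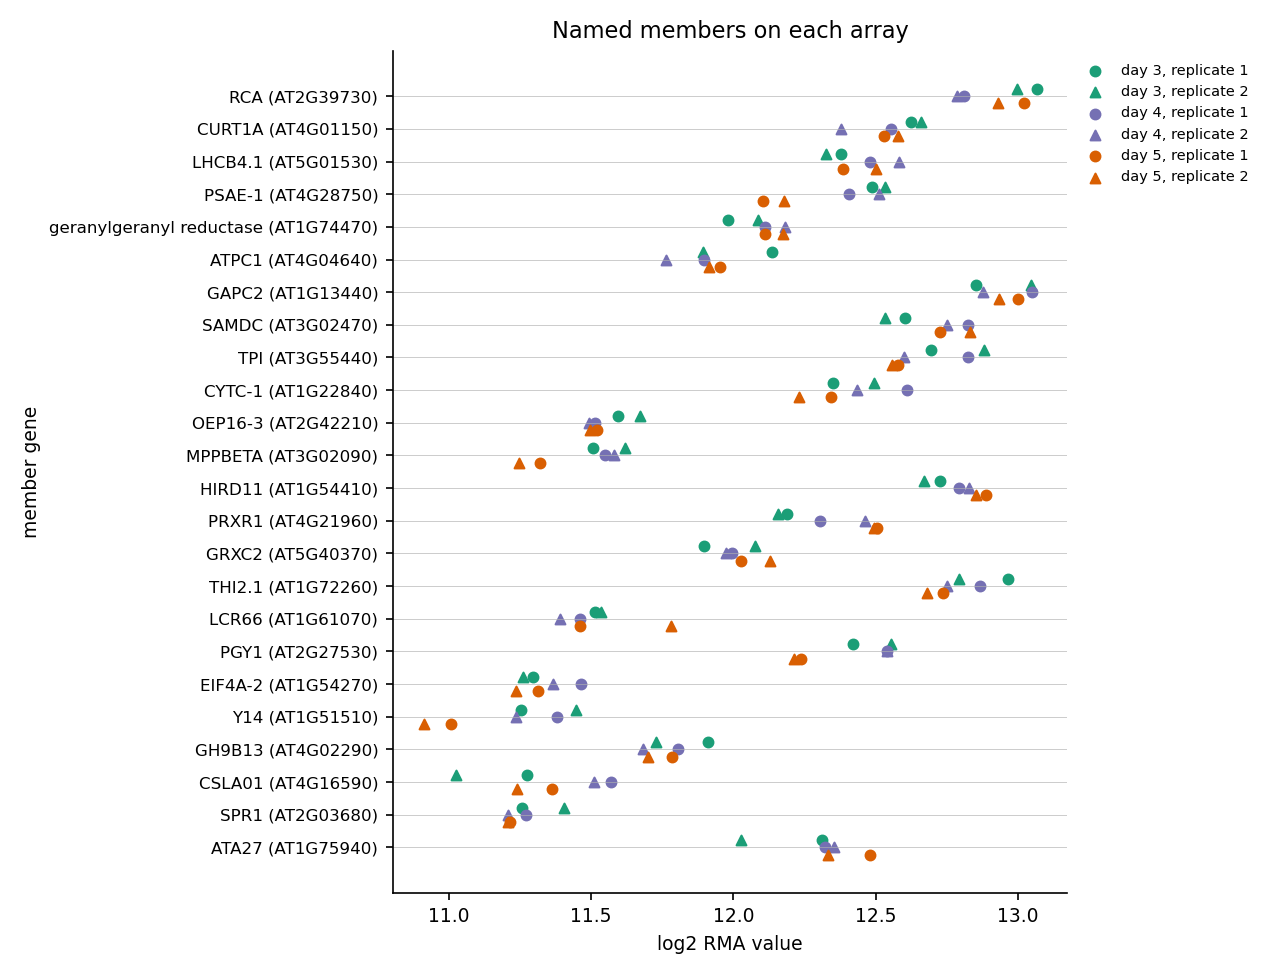
Log2 values of named members on each of the 6 arrays, up to 6 genes for photosynthesis and the plastid and up to 3 for each other group, with days by colour and replicates by shape. RCA was lowest on day 4, PSAE-1 and PGY1 on day 5, and the days of GAPC2 overlapped.

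Over the 200 members, the span of the day means ran from 0.01 to 0.39 with a median of 0.22, beside a median of 0.26 over the eligible probe sets. It was under 0.1 in 24 members and at least 0.3 in 48. The smallest belonged to AT5G39570, whose 6 values lay between 11.99 and 12.09, then to GAPC2 and AT5G35530. All 6 arrays fell within 0.4 in 160 members and spread further in 40.

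The spread between replicates was not itself a criterion, but a limit on means of 2 samples and a choice by signal both bear on it. Among eligible probe sets its median was 0.071 at ranks 1 to 50 by signal and 0.125 among the dimmest 5421. The values below are thus a description, and no separate trait of the members is read from them. The median absolute difference of the 2 samples of a day over the members was 0.072, 0.090 and 0.070 log2 on days 3, 4 and 5. Over all 22746 probe sets it was 0.106, 0.126 and 0.102. For the 110 bright probe sets left out, the median over the 3 days was 0.0929, and for the members 0.0779. The largest replicate difference of a member was 0.43, in AT5G07230 on day 5. In 140 members the day span exceeded every replicate difference, and in 60 it did not.

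**Figure D3:**
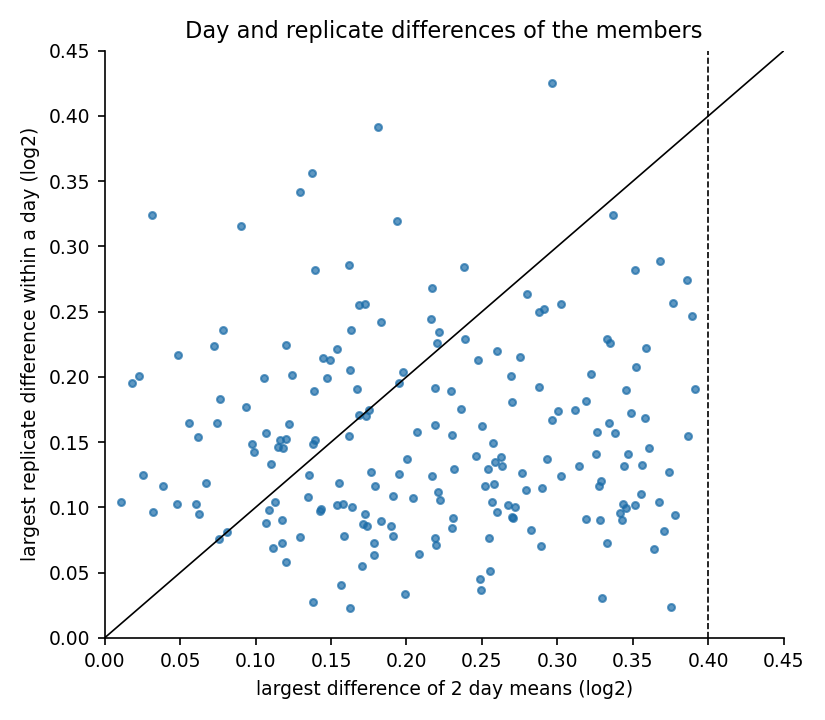
For each of the 200 members, the largest difference between 2 day means (x axis) and the largest difference between replicates of a day (y axis), both in log2 units. The 140 points under the diagonal had a day span above every replicate difference, and the 60 others did not.

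Day 5 was the lowest day in 128, day 3 in 48 and day 4 in 24, while 89 were highest on day 4. The day 5 mean was below the day 3 mean in 141 and above it in 59, with a median difference of -0.11 log2. After cyclic loess normalization the split was 113 and 87 with a median of -0.02, and against day 4 it was 108 and 92 with a median of -0.01. Among the 160 members without a name the split on the deposited scale was 116 below and 44 above, or 97 and 63 after cyclic loess. Both day 5 samples lay below the other 4 in 98 members and above them in 21, and over all probe sets these shares were 25.4% and 19%. The selection used these same values, so nothing is read from these counts.

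The spiked and ribosomal RNA controls moved on the same day. The mean of the 24 poly-A control probe sets was 6.98 to 7.16 on days 3 and 4 and 7.63 and 7.53 on day 5, and the 25S ribosomal RNA control read 12.30 to 12.50 on days 3 and 4 and 13.30 and 13.52 on day 5. Array medians lay between 7.41 and 7.46, and the actin 3' minus 5' difference between 1.20 and 1.53. The part of the controls' rise in the members' day 5 values was not tested. With the arrays scaled to the poly-A controls, 12 of the 200 members stayed within the limit, and all 200 were lower on day 5 than on day 3 with a median of -0.60, where all probe sets had a median of -0.50. The steadiness that the rule imposed thus holds on the deposited scale and not on the poly-A scale. On the deposited scale too the members' median lay below that of all probe sets, at -0.11 beside -0.01. For the 110 bright probe sets left out it was -0.33. After cyclic loess the medians were -0.02 for the members and 0.001 for all probe sets. The rule bounded the members' day differences, so no trait of the members is read from these medians.

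**Figure D4:**
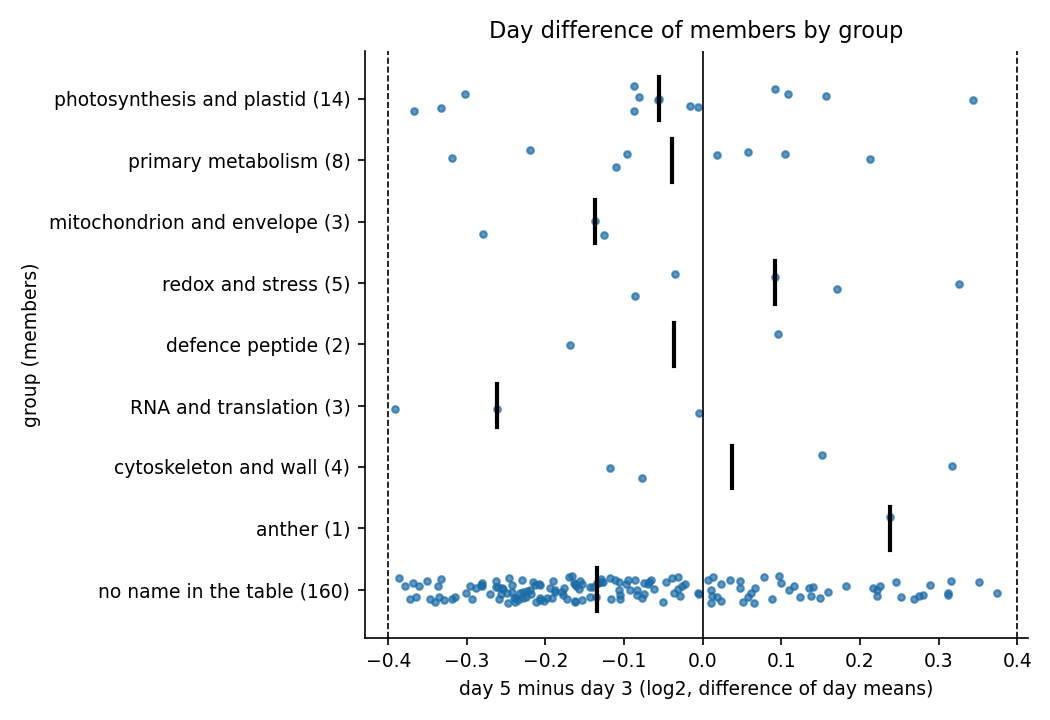
Day 5 minus day 3 in log2 units for each member (points) by the role of its name, with the group median as a bar and the limits of 0.4 dashed. The 160 members without a name had 116 values below 0 and 44 above, a split that was 97 and 63 after cyclic loess.

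limma, fitted over all 22746 probe sets with Benjamini-Hochberg adjustment at 0.05, called 20 of the 200 members among the 3 days, beside 31% of all probe sets. Between days 5 and 3 it called 24 members, 7 higher and 17 lower, beside 28.9% of all probe sets in either direction, 13.2% higher and 15.7% lower. That split turned with the scaling, to 17 higher and 4 lower after cyclic loess and 13 of each with quantile normalization repeated. Between days 5 and 4 it called 30 members, 6 higher and 24 lower, beside 23.9% in either direction, 10.5% higher and 13.4% lower. It too turned, to 10 higher and 0 lower after cyclic loess and 7 higher and 2 lower with quantile normalization repeated. Between days 4 and 3 limma called 0 members, beside 4.95% of all probe sets, 2.48% higher and 2.47% lower. At an unadjusted p under 0.05 there were 8 members, 4% of them, beside 20.4% of all probe sets. With a prior variance that followed the mean level limma called 3 members, beside 6.8% of all probe sets. The limit of 0.4 had removed large differences beforehand, and nothing is read from these counts. Named members past the test over the 3 days were PSAE-1, PSBY, PRK, Y14 and WLIM2b, with adjusted p from limma between 0.029 and 0.046. Leaving out either day 3 sample or either day 5 sample gave 0 to 4 members called over the 3 days, where the same fits called 16.9% to 22.4% of all probe sets.

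At the lower edge of the level, the last members were AT4G31340 at 11.17, AT1G24510 at 11.17 and AT4G21110 at 11.15. The first steady probe sets below it were AT2G37220, AT3G03150 and AT2G21390, all at 11.15. Just inside the day limit lay AT2G32060, CSLA01 and Y14 with a span of 0.39, and just outside it AT2G01250 and HTB4 with 0.40 and AT1G12310 with 0.41. HTB4, a histone H2B gene, read 12.57 and 12.53, then 12.38 and 12.33, then 12.13 and 12.17.

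The 110 bright probe sets beyond the limit had 81 spans under 0.6 and 7 of at least 1. The brightest were AT1G66850, which read 12.99 and 13.28 on day 3 and 13.77 and 13.86 on day 5, and the defensin-like LCR69, which read 13.30 and 13.28 on day 3 and 12.90 and 12.78 on day 5. They were followed by AT4G17390, AT4G16190, AT3G60770, AT2G01250, the alpha-tubulin TUA6, DI19, AT3G53890 and AT4G23680. TUA6 had day means of 12.68, 12.58 and 12.25. The drought-induced DI19, a zinc finger protein, had day means of 12.32, 12.30 and 12.87. COR15A, a cold and drought responsive chloroplast protein, had 11.65, 12.28 and 12.65. The widest spans were those of AT5G52390 at 2.00 and AT4G14270 at 1.74.

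The share of eligible probe sets within the limit was 88% among the 50 brightest and 62% among the next 50. It was 64% at ranks 101 to 200, 55.5% at ranks 201 to 310 and between 61.1% and 68.4% down to rank 8000. Among the dimmest 5421 it rose to 85.5%. The brightest 50 and the dimmest probe sets thus met the limit more often than those between them. Whether probes near the top of the scale respond less was not tested.

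**Figure D5:**
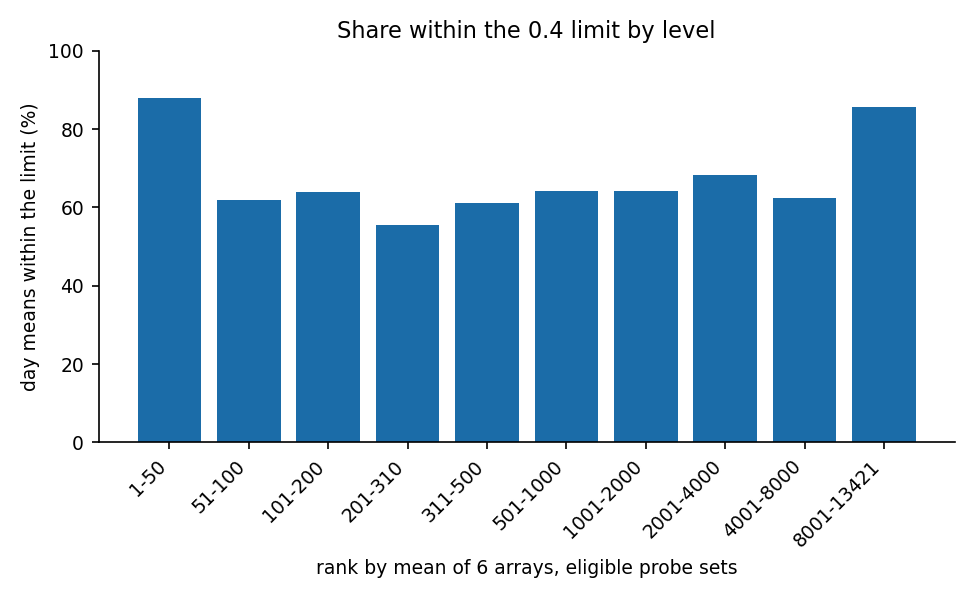
Share of eligible probe sets whose day means lay within 0.4 log2, in percent, by rank of the mean over 6 arrays. The first bar, the 50 brightest, stands at 88%, the last at 85.5% and the bars between at 55.5% to 68.4%.

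The order of the 200 members was similar on every array, with Spearman coefficients across genes of 0.92 to 0.98 over the pairs of arrays. The rule held day means within 0.4 while levels ran from 11.15 to 13.82, which favours a like order, so nothing is read from it. Of the members, 132 to 142 were among the brightest 200 eligible probe sets of a given array. In the RefSeq annotation of the TAIR10.1 assembly, 5 pairs of members were adjacent protein-coding genes, among them AT2G27710 and AT2G27720, AT2G27720 and AT2G27730, and AT3G02080 and MPPBETA.

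Gene families often expected to be bright were set beside the members through partial lists. An eligible probe set matched by words in the names the table gives, or by a listed locus that the table also names. By locus, 4 of 35 listed core histone loci, 7 of 15 tubulin loci and 0 of 11 elongation factor loci were counted. The lists also miss genes whose names lack those words, such as PRK, SBPASE and PSB27 for photosynthesis and PGY1 for ribosomal proteins, which are members. On the list of nuclear photosynthesis genes 6 of the 8 matched were members, and for cytosolic glycolysis 2 of 4. For redox enzymes the count was 2 of 14, for mitochondrial carriers and related proteins 1 of 6, and for translation initiation 1 of 1. No named member came from the listed 7 tubulins, 6 core histones, 18 small GTPases, 11 chaperones and cyclophilins or 5 proton pumps. The same held for 2 actin genes and 2 elongation factors. It also held for the 1 gene that each of the ribosomal protein, proteasome, aquaporin and metallothionein lists matched. The 160 members with no name in the RefSeq table could match no list. Whether any of them belong to these families cannot be read from these counts. By limma over the 3 days, 5 of these 7 tubulins and 6 of these 6 core histones passed the adjusted p of 0.05, against the 31% of all probe sets given above. On other lists 4 of 8 photosynthesis genes, 5 of 11 chaperones and cyclophilins, 6 of 14 redox enzymes and 2 of 6 mitochondrial genes passed. So did 5 of 18 small GTPases, 0 of 5 proton pumps and 0 of 4 glycolysis genes. On the smallest lists 2 of 2 elongation factors, 1 of 2 actin genes and the 1 ribosomal protein gene passed. The 1 gene that each of the translation initiation, proteasome, aquaporin and metallothionein lists matched did not. These are counts of matched genes and not of whole families. The lists for ubiquitin, 14-3-3, lipid transfer, fasciclin-like and GASA, RNA binding, glycine-rich RNA-binding and methionine cycle genes matched 0 named genes.

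The labelled tissue could be checked only in part. Of 15 floral organ identity genes and 5 root genes 0 had a named probe set, and of 6 tapetum markers 2 did. Listed loci that the table does not name were not counted. Among these, AT5G07230 of the tapetum list is a member. It read 11.67 and 11.56 on day 3, 11.86 and 11.77 on day 4, and 11.31 and 11.73 on day 5. Its day 5 samples lay on either side of those of day 3. AMS, a transcription factor of the tapetum, the nourishing layer of the anther, read 9.51 and 9.61 on day 3, 9.58 and 9.32 on day 4, and 8.81 and 9.23 on day 5. EMS1, a receptor kinase that specifies that layer, read 9.16 and 9.16, then 9.02 and 9.21, then 8.66 and 8.69. AMS and EMS1 were both lower on day 5, and the part of these marker genes in the members' values was not tested.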

How the data were processed

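Per the submitters' processing notes the authors made the deposited log2 values with RMA in the affy package, which corrects background, quantile-normalizes arrays and summarizes probe sets, so day differences are relative to the whole array. No version is stated for either. Genes were named from the platform's table updated through the RefSeq table. All 200 members matched it, and roles were given only to the 40 it names, apart from the marker locus AT5G07230. The grouping of these 40, and the choice to name them all, were made after their values were seen. Other named genes follow rules on signal rank, day span, replicate difference and nearness to the limits. The members and lists were chosen with earlier results of these data known.

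The tests used limma 3.58.1 in R 4.3.3, with lmFit and eBayes over 22746 probe sets without the 64 controls, day as the factor, a moderated F over 3 days and 3 contrasts, and Benjamini-Hochberg adjustment at 0.05. The fit had 3 residual degrees of freedom, and 6 arrays limit the precision. The fit was also run on simulated arrays with independent noise and added shifts larger than the members' day limit allows. That run says nothing about the calls among the members. Figures and counts used Python 3.11.15 and pandas 2.3.3. Alternatives were 4 other scalings, other day limits, another ranking, a prior variance that follows the level, leaving out the dimmest 30%, a replicate block and each array left out. Counts by group under the scalings were added after seeing the data. Promoter and protein sequences were not used here.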

Additional observations from a re-analysis of the deposited data

How the results depend on the processing

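Of the 200 members, 12 were still chosen after scaling to the poly-A controls, and 152 to 200 under the other scalings, day limits and rankings. Leaving out each array kept 181 to 192. The calls below are members called by limma, each with the share of all probe sets called in the same fit. Over the 3 days the 20 calls (31%) became 75 (35%) with a prior variance that follows the level, 12 (30.1%) with quantile normalization repeated, 193 (87.6%) with poly-A scaling, 13 (30.1%) with cyclic loess and 42 (44.6%) without the dimmest 30% of probe sets, and 0 to 19 (16.9% to 31.3%) without single arrays. For day 5 against day 3 the 24 calls (28.9%) became 65 (31.4%) with the prior variance, 180 (79.9%) with poly-A scaling and 43 (41.7%) with the dim filter, and 0 to 34 (16.9% to 30.9%) without single arrays. Without day 3 replicate 2 or day 5 replicate 2 there were 0, without day 3 replicate 1 there were 4 and without day 5 replicate 1 there were 5. For day 5 against day 4 the 30 calls (23.9%) became 63 (26.8%) with the prior variance, 9 (23.2%) with quantile normalization, 192 (86%) with poly-A scaling and 10 (23.1%) with cyclic loess, and 1 to 15 (11% to 21.2%) without single arrays. For day 4 against day 3 the 0 calls (4.95%) became 3 (6.8%) with the prior variance. The median replicate difference of 0.0779 became 0.105 with poly-A scaling and 0.0904 on day 4 alone. The 10 photosynthesis and plastid members lower on day 5 than on day 3 became 4 with cyclic loess. The causes of these changes were not tested, and leaving out an array also leaves fewer samples. Same-numbered samples did not deviate together (correlations 0.058, -0.0022 and 0.098), and with the replicate block the calls were 20 (32.3%) over the 3 days, 22 (29.5%) between days 5 and 3, and 28 (24.7%) between days 5 and 4.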
